A study of Homo sapiens with 8 samples.

Results

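The response of U-CH1 cells to tumour necrosis factor (TNF-α) was read from 1 array of TNF-treated U-CH1 cells, set against the 3 arrays of untreated U-CH1 controls, which are 4 of the 8 arrays in the series. U-CH1 is a human cell line established from a chordoma, a rare tumour of the axial skeleton that keeps features of the embryonic notochord. The treated cells had been kept for 1 week with TNF-α, the recombinant human protein, added 3 times a week at 10 ng/mL. The controls had been kept under normal conditions in the same serum-containing medium on gelatin-coated plastic. For the controls the labels give no time in culture and no schedule of additions. Whether these matched the treated cells is not known. The other 4 arrays, 3 controls and 1 TNF-treated sample of MUG-Chor1, another chordoma line, entered the choice of genes to test, the estimate of the spread and the difference between the lines. No genetic change was made in any of the cells, and no group carried a second agent.

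TNF-α binds the receptor encoded by TNFRSF1A and, through adapter proteins of the TRAF family, frees the transcription factor NF-kB from its inhibitors. NF-kB induces chemokines, adhesion molecules and cell survival genes, together with its own inhibitors, which close a feedback loop. In many cell types, long exposure to TNF-α is also known to induce genes better known as targets of interferon, which act against viruses and mark cells for immune recognition.

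The values are deposited log2 expression values, so a difference of 1 is a doubling of signal. The 4 U-CH1 arrays had medians of 2.54 to 2.63 over all probe sets and were alike in overall brightness. Over the 16986 genes tested the controls correlated with each other at 0.962 to 0.967 and the TNF array with them at 0.938 to 0.947. The chordoma marker TBXT, which encodes brachyury, read 9.14 to 9.75 on the controls and 8.80 on the TNF array, and KRT19 read 10.45 to 10.58 and 9.49. KRT18, another keratin used as a marker, read 4.86 to 5.74 on the controls and 4.72 with TNF. The leukocyte genes PTPRC and CD3E were below 2.57, the median of all deposited values, on every array. Of the 7 leukocyte markers that could be tested, however, 6 lay above the control range with TNF, with a median difference of 0.68, and none was called. An array averages over all cells of a culture, so more cells that make a transcript and more transcript per cell cannot be told apart.

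With 1 TNF array, a difference was first set against the range of the 3 controls. The median range of the controls was 0.48 and its 95th percentile 1.14. The TNF array lay above the highest control for 5237 genes (30.8%) and below the lowest for 3980 (23.4%), so being outside the range was common. It lay at least 1 above the range for 309 genes (1.82%) and at least 1 below it for 129 (0.759%). In limma, with Benjamini-Hochberg adjustment over all genes tested, 155 genes rose (0.913%) and 61 fell (0.359%) at adjusted p under 0.05, and all 216 lay at least 1 outside the control range. Another 154 genes above the range by that margin and 68 below it were not called. The limma test assumes that the single TNF array varies like the controls, and the labels do not state whether the controls were separate cultures, so the p-values speak only of the spread among these arrays, which may be technical. The count of 216 was 123 without control 1 and 106 without control 2. Of the MUG-Chor1 controls, leaving out the first gave 123 and leaving out the third 329, and no gene among the 216 changed sign under any of the 12 alternatives tried.

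The called rises had a median of 1.96, with 70 of at least 2 and 18 of at least 3, and the called falls a median of -1.94, with 30 of at least 2 in size and 12 of at least 3. Over all genes tested the median difference was 0.04. For 29 of the 155 rises all 3 controls were below 2.57, where signal and background are hard to separate, so the size of those rises depends on the floor of the array. Only 2 of the 61 falls ended below that value on the TNF array.

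**Figure D1:**
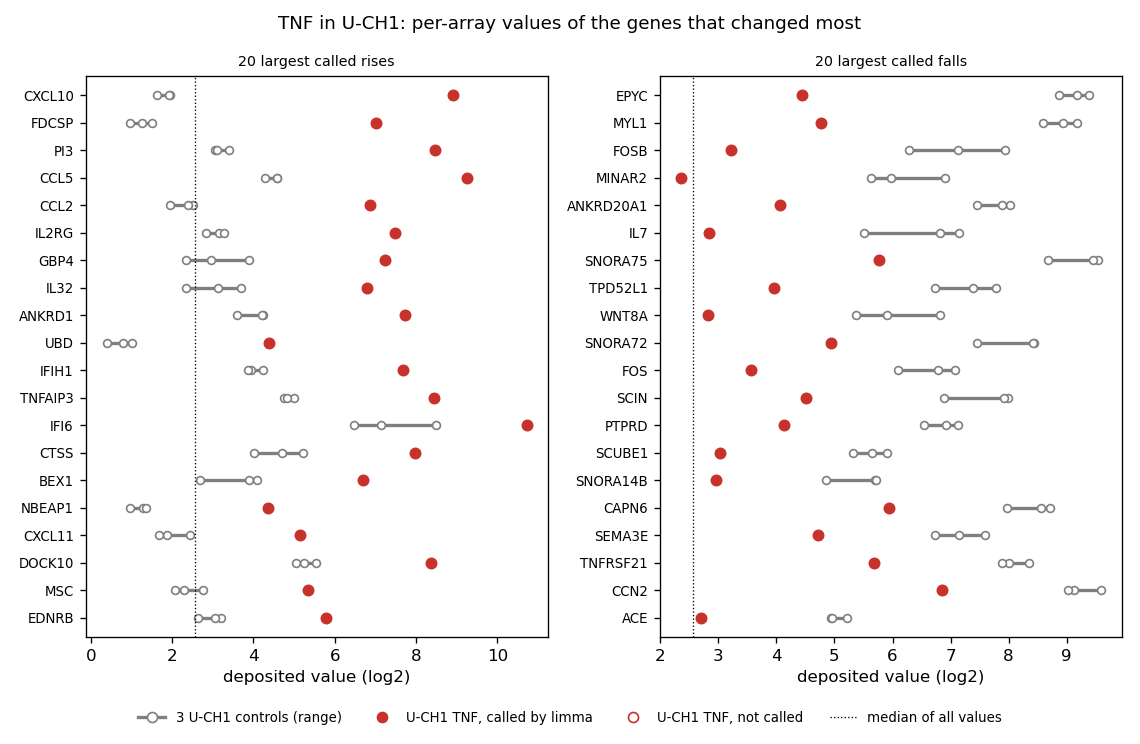
Deposited log2 values of the 20 genes with the largest called rises and the 20 with the largest called falls, with open grey circles for the 3 U-CH1 controls, a grey bar for their range, a filled red circle for the TNF array and a dotted line at the median of all values, 2.57. Every TNF value lies outside the control range, as for all called genes. CXCL10, FDCSP, CCL2, UBD, NBEAP1 and CXCL11 rise from controls left of the dotted line.

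Secreted immune mediators led the rise. CXCL10, a chemokine that attracts T cells, read 1.94, 1.92 and 1.62 on the controls and 8.91 on the TNF array. All 3 controls were below the median of all values, and the TNF value was 6.97 above the highest of them. The rise was 7.09 ± 0.27 (SE; adjusted p = 1.09e-06 in limma), or 136-fold, and 81.1-fold when values under 2.57 were raised to it. Its relative CXCL11 read 2.44, 1.87 and 1.69 on the controls and 5.14 with TNF, a rise of 3.14 (adjusted p = 0.00162) that was 2.6 with this floor. FDCSP, a small secreted peptide first known from follicular dendritic cells, read 1.25, 1.5 and 0.96 on the controls and 7.01 with TNF, a rise of 5.78 (adjusted p = 8.16e-06). The controls of FDCSP were again below the median, and its rise was 4.44 with the floor. PI3, which encodes the elastase inhibitor elafin, read 3.40, 3.04 and 3.11 on the controls and 8.47 with TNF, a rise of 5.28 (adjusted p = 0.000986).

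The CC chemokines that attract monocytes and T cells included 2 large rises. CCL5 read 4.59, 4.57 and 4.27 on the controls and 9.25 with TNF, a rise of 4.77 (adjusted p = 0.00584). CCL2 read 2.52, 1.94 and 2.40 on the controls and 6.86 with TNF, a rise of 4.58 (adjusted p = 0.00909). These were the 2 called of 10 tested CC and CX3C chemokines, and the median of the list was 0.00, with 3 members above the control range and 3 below it. Over all genes tested 30.8% lay above the range and 23.4% below it. The controls of CCL2 were all below 2.57, and its rise was 4.29 with the floor. CX3CL1, or fractalkine, read 3.80 to 5.17 on the controls and 4.64 with TNF, and CCL20 2.44 to 2.75 and 3.72. Among 6 tested neutrophil-attracting CXC chemokines CXCL8 rose by 1.75 (adjusted p = 0.0208), a call lost without control 1 or control 3 (adjusted p up to 0.0640), while CXCL1 read 6.36 to 6.69 on the controls and 5.67 with TNF. CXCL14, by contrast, read 7.43 to 9.32 on the controls and 6.47 with TNF, which was not called (adjusted p = 0.72).

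The promoters of 5 of the genes that rose are shown because they carry letters known as target words of the factors that answer interferon and TNF. They are the 250 bases before the gene start in the RefSeq table of assembly GRCh38.p14, written 5′ to 3′ on the gene's strand, and they come from the reference and not from U-CH1. The capitals mark GAAANNGAAA, the core of the interferon-stimulated response element, in CXCL10, IFI6 and OAS3, and GGGNNNTTCC, a kappaB word bound by NF-kB, in CXCL10, OAS3, UBD and NFKBIA, each searched on both strands. The windows lie at chr4:76023498-76023747 on the minus strand for CXCL10, within the span of ART3, at chr1:27672193-27672442 on the minus strand for IFI6, at chr12:112938224-112938473 on the plus strand for OAS3, at chr6:29559733-29559982 on the minus strand for UBD and at chr14:35404750-35404999 on the minus strand for NFKBIA.
CXCL10: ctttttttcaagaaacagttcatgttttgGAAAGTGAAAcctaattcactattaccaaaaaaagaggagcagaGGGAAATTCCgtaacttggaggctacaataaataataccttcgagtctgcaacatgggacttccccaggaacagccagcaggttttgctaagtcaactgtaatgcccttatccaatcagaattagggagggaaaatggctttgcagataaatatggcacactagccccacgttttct
IFI6: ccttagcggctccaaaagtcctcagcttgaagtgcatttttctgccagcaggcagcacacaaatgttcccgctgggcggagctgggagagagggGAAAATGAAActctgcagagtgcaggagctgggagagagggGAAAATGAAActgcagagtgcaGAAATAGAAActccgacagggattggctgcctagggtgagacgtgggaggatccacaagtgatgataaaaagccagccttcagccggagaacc
OAS3: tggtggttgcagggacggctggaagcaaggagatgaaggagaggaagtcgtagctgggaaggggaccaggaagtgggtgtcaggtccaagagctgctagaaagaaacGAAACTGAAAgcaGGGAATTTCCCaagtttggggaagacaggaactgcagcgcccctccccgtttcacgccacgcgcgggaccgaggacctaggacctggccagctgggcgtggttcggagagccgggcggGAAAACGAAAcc
UBD: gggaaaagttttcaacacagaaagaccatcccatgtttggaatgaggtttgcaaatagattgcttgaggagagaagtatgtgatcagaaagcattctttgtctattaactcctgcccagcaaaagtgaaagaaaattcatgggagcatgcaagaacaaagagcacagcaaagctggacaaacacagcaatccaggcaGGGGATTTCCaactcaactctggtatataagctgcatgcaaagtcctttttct
NFKBIA: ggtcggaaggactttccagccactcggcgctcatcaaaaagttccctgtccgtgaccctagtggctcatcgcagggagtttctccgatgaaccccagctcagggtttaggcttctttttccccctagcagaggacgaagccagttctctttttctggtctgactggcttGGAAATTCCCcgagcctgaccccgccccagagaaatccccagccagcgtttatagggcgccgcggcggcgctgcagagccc
In the CXCL10 promoter the response element word GAAAGTGAAA starts 221 bases before the gene start and the kappaB word GGGAAATTCC 177 bases before it. The IFI6 promoter holds the response element word at 3 places, 156, 115 and 93 bases before the start. The OAS3 promoter holds it at 143 and 12 bases before the start, with GGGAATTTCC at 130 bases, whose last bases also read as the looser word on the other strand. UBD holds GGGGATTTCC at 53 bases, and NFKBIA holds GGAAATTCCC, the kappaB word read on the other strand, at 81 bases.

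Such words stood in a larger share of the promoters of genes that rose than of promoters at large. Of 155 genes that rose, 118 had a promoter in the table, and GAAANNGAAA was in 18 of them (15.3%), against 298 of 12495 tested genes with a promoter (2.38%) and 839 of all 27305 promoters (3.07%). The stricter kappaB word GGGNNTTTCC, which is contained in the looser one, was in 14 of the 118 (11.9%), against 1.94% of tested genes and 1.73% of all promoters. GGGNNNTTCC was in 24 (20.3%), against 6.49% and 5.61%. Of the 42 genes that fell and had a promoter, 3 held the response element word (7.14%, also above the 2.38% of tested genes), none the stricter kappaB word and 2 the looser one (4.76%). The response element word and the looser kappaB word occurred together in 5 of the 118 promoters, and 37 held at least 1 of them. The words were chosen with the results known, so these shares are descriptions, and a match is not a measured binding site.

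Many genes induced by interferon were among the rises. Their products cut or trap viral RNA, block viral entry and sense foreign nucleic acid. Over 4 lists that hold OAS and IFIT genes, the ISG15 system, membrane and other effectors, and sensors with their adapters, 16 of 60 tested genes rose and none fell, 52 lay above the control range and 3 below it. The median difference was 1.23, against 0.04 over all genes tested. The sensor list also holds general sensors of microbes and adapters, the called TLR2 among them. The count of 16 was 8 to 22 over the alternatives, and the median 1.16 to 1.42.

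The OAS genes, whose enzymes make the second messenger that activates RNA cleavage, moved together. OAS2 read 4.57, 4.66 and 5.51 on the controls and 7.59 with TNF, OAS1 4.61, 5.36 and 5.33 against 7.40, and OAS3 5.41, 4.91 and 5.64 against 7.19. All were above every control, by 2.08, 2.04 and 1.54. The rises were 2.68 for OAS2 (adjusted p = 0.00917), 2.30 for OAS1 (adjusted p = 0.00889) and 1.86 for OAS3 (adjusted p = 0.0306). IFIT1, which binds viral RNA, read 2.52, 3.00 and 3.39 on the controls and 5.29 with TNF, a rise of 2.32 (adjusted p = 0.0441), and IFIT5 rose by 1.29 (adjusted p = 0.0413). Together 5 of 8 tested OAS and IFIT genes rose and all 8 lay above the control range, with a median of 2.00. IFIT3 read 3.32 to 4.60 on the controls and 5.94 with TNF and was not called (adjusted p = 0.33). The count of 5 fell to 2 without control 1 or control 2 and to 3 without control 3 or without either of MUG-Chor1 controls 1 and 2, and OAS3, IFIT1 and IFIT5 were among those lost (adjusted p up to 0.121).

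IFI6, a membrane protein of the interferon response, read 7.13, 6.48 and 8.48 on the controls and 10.72 with TNF. Control 3 was the highest of its controls, and the TNF value was 2.24 above it. Its rise of 3.36 had an adjusted p of 0.0219, and 0.0751 without control 1. XAF1, which promotes cell death, read 5.37, 5.29 and 6.17 on the controls and 8.05 with TNF, a rise of 2.44 (adjusted p = 0.0144). BST2, which tethers budding viruses to the membrane, rose by 2.34 (adjusted p = 0.0121), SAMD9, a restriction factor of poxviruses, by 2.18 (adjusted p = 0.00518), IFI27 by 2.15 (adjusted p = 0.0352) and PARP14, an ADP-ribosyltransferase, by 1.99 (adjusted p = 0.0132). In the list of 31 membrane and other effectors 9 rose, 27 lay above the control range and only PLSCR1 lay below it, with a median of 1.26. The count of 9 was 5 without control 1 and 6 without control 2, where the call of XAF1 was lost (adjusted p up to 0.0544), as was that of IFI27 without any single U-CH1 control (adjusted p up to 0.0706).

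The genes that attach ISG15, a ubiquitin-like modifier, to proteins showed a shared shift without a call. All 6 tested members lay above the control range, with a median of 1.23, and none was called in limma, while 5 had an unadjusted p under 0.05. UBA7, the activating enzyme, read 4.03 to 5.06 on the controls and 6.05 with TNF (adjusted p = 0.0829), and ISG15 itself 4.20 to 5.01 and 5.87 (adjusted p = 0.14). The call for 1 member appeared without control 3.

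Among sensors of microbes and their adapters 2 genes rose. IFIH1, which encodes the RNA sensor MDA5, read 3.95, 4.23 and 3.86 on the controls and 7.67 with TNF, 3.44 above the highest control. Its rise of 3.66 ± 0.29 (SE; adjusted p = 0.000489 in limma) was 12.6-fold, and its call held under all 12 alternatives. TLR2, a receptor for bacterial lipoproteins, read 3.28, 3.24 and 3.46 on the controls and 4.96 with TNF, a rise of 1.63 (adjusted p = 0.0223), lost without control 1 or control 2 (adjusted p up to 0.0640). These were the 2 called of 15 nucleic acid sensors, other sensors and adapters, of which 11 lay above the range. STING1 read 5.24 to 6.05 on the controls and 5.57 with TNF, within the range.

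The 3 controls were not alike in these genes. Control 3 was the highest control for 39 of the 60, control 2 for 15 and control 1 for 6. As a mean deviation from the control mean, the OAS and IFIT list stood at -0.27, -0.12 and 0.39 on controls 1, 2 and 3 and at 1.85 on the TNF array. The ISG15 system stood at -0.15, -0.32 and 0.46 on the controls and at 1.13 with TNF. So control 3 lay toward the TNF array in these lists, and the TNF array lay beyond it.

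The genes that could send or relay an interferon signal held no call. Over all genes tested 0.913% rose and 0.359% fell, so lists of this size often hold none. Of 9 tested interferon and interferon receptor genes, none was called in limma, and 3 had an unadjusted p under 0.05. In this list 4 lay above the control range and 2 below it, with a median of 0.14. IFNB1, IFNE, IFNK and IFNG were below 2.57 on every array. IFNB1 read 1.88, 1.88 and 1.49 on the controls and 1.62 with TNF. Of 8 interferon regulatory factors none was called in limma and 3 had an unadjusted p under 0.05. Above the control range lay 5 of them and below it 2, with a median of 0.55. IRF1 read 5.48 to 6.58 on the controls and 7.10 with TNF (adjusted p = 0.38). Of 13 JAK, STAT and SOCS genes none was called, while 4 had an unadjusted p under 0.05 upwards and 1 downwards. There 7 lay above the control range and 3 below it, with a median of 0.12. Over all genes tested 30.8% lay above the range and 23.4% below it.

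**Figure D2:**
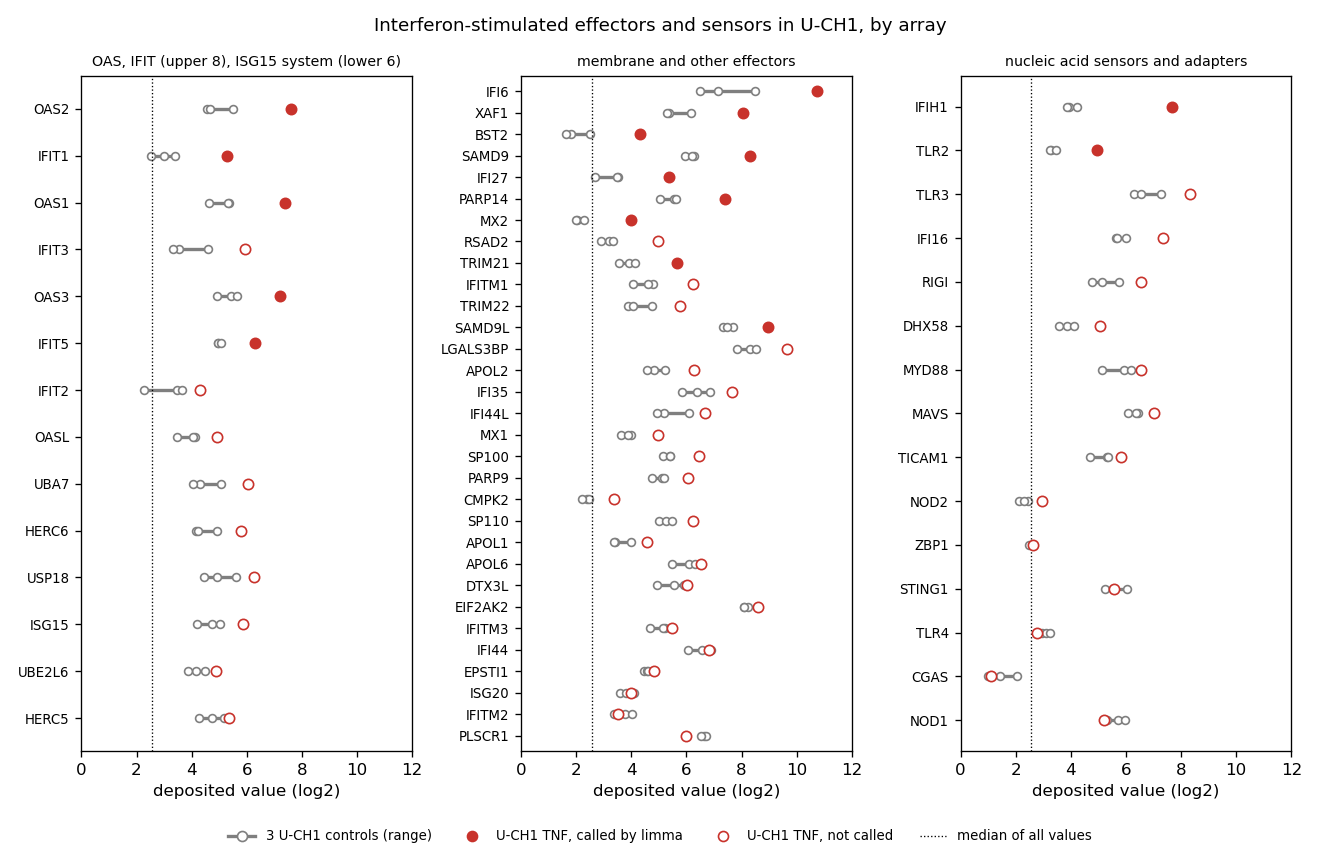
Deposited log2 values of 60 genes in lists of interferon effectors and of sensors with their adapters, ordered within each list by the difference. Open grey circles are the 3 U-CH1 controls, with a bar for the range. Red circles are the TNF array, filled where called by limma and open where not. Red circles lie right of the grey bar for 52 of the 60 genes, and 16 are filled.

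Targets shared with interferon gamma also rose in part. GBP4, a guanylate-binding protein, read 2.33, 3.90 and 2.96 on the controls and 7.24 with TNF, a rise of 4.18 (adjusted p = 0.0144), which was 0.0504 without control 1. IDO1, which degrades tryptophan, read 2.05, 2.11 and 2.30 on the controls and 4.56 with TNF, a rise of 2.41 (adjusted p = 0.00445). GBP2 rose by 1.84 (adjusted p = 0.0383) at its brighter probe set and differed by 1.76 at the other. They were 3 of 9 tested guanylate-binding and interferon gamma targets, of which 7 lay above the range. The count was 1 without control 1 and 5 without MUG-Chor1 control 3, and GBP2 lost the call also without control 2, MUG-Chor1 control 1 or MUG-Chor1 control 2 (adjusted p up to 0.104). CIITA, the main regulator of MHC class II genes, read 2.74 to 3.31 on the controls and 2.72 with TNF. UBD, which encodes the ubiquitin-like modifier FAT10, read 0.80, 1.01 and 0.39 on the controls and 4.39 with TNF. Its controls were among the lowest values on the arrays, so its rise of 3.66 (adjusted p = 0.000649) was 1.82 with the floor.

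The receptor gene TNFRSF1A was not called, and TNFRSF1B, which encodes another receptor for TNF-α, is not analysed here. TNFRSF1A read 6.63 to 6.74 on the controls and 6.48 with TNF, 0.15 below the lowest control (adjusted p = 0.91). The TNF transcript read 2.84 to 3.07 and 4.07, 1.01 above the highest control, and was not called either (adjusted p = 0.112). Other members of the receptor family changed in both directions. TNFRSF9, also called 4-1BB, a costimulatory receptor, read 2.39, 2.07 and 2.19 on the controls and 4.65 with TNF, a rise of 2.44 (adjusted p = 0.0131, and 0.0511 without control 2). TRAF3, an adapter that restrains the alternative NF-kB pathway, rose by 1.80 (adjusted p = 0.0478), a call that ended without any control but MUG-Chor1 control 3 (adjusted p up to 0.116). TNFRSF21, or death receptor 6, read 8.01, 7.88 and 8.35 on the controls and 5.67 with TNF, a fall of 2.40 on the log2 scale (-2.40, adjusted p = 0.00445). TNFRSF11B, which encodes osteoprotegerin, a decoy receptor for RANKL and TRAIL, read 7.95, 8.30 and 8.53 on the controls and 6.13 with TNF, a difference of -2.13 (adjusted p = 0.0126). So 2 of 16 tested receptor and adapter genes rose, 2 fell and 10 lay above the control range, and the 4 calls were 2 without control 2.

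The NF-kB subunits and the kinases that activate them lay above the control range for 9 of 10 genes, with a median of 1.29. NFKB2, the precursor of the alternative pathway's subunit, read 5.19, 5.0 and 4.85 on the controls and 6.59 with TNF, a rise of 1.58 (adjusted p = 0.0238). NFKB1 rose by 1.47 (adjusted p = 0.0290), MAP3K14, the NF-kB-inducing kinase, by 1.57 (adjusted p = 0.0358) and the kinase gene IKBKE by 1.84 (adjusted p = 0.0416). RELB read 2.94 to 4.02 on the controls and 5.53 with TNF and missed the threshold (adjusted p = 0.0502), and RELA read 6.26 to 6.93 and 7.09. The 4 calls were none without control 2, control 3 or MUG-Chor1 control 1 and 2 without control 1 or MUG-Chor1 control 2, with adjusted p up to 0.112, while the median stayed between 1.22 and 1.31. With all controls 6 of the 10 had an unadjusted p under 0.05.

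The inhibitors that NF-kB induces rose for 5 of 15 genes, and 12 lay above the control range. TNFAIP3, which encodes the ubiquitin-editing inhibitor A20, read 4.75, 4.99 and 4.81 on the controls and 8.44 with TNF. It was 3.44 above the highest control, and its rise of 3.58 ± 0.35 (SE; adjusted p = 0.00144 in limma) was 12-fold. NFKBIE read 3.03, 2.90 and 3.43 on the controls and 5.64 with TNF, a rise of 2.52 (adjusted p = 0.00419). NFKBIA, the inhibitor whose promoter is shown above, read 6.17, 5.87 and 6.45 on the controls and 8.17 with TNF, a rise of 2.00 (adjusted p = 0.0168). TNIP1, a partner of A20, rose by 1.77 (adjusted p = 0.0256) and OPTN, an adapter that binds ubiquitin, by 1.28 (adjusted p = 0.0496). The 5 calls were 2 without control 1 or control 2 and 3 without MUG-Chor1 control 1. NFKBIA (adjusted p up to 0.0561), TNIP1 (adjusted p up to 0.0640) and OPTN (adjusted p up to 0.112) lost theirs.

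**Figure D3:**
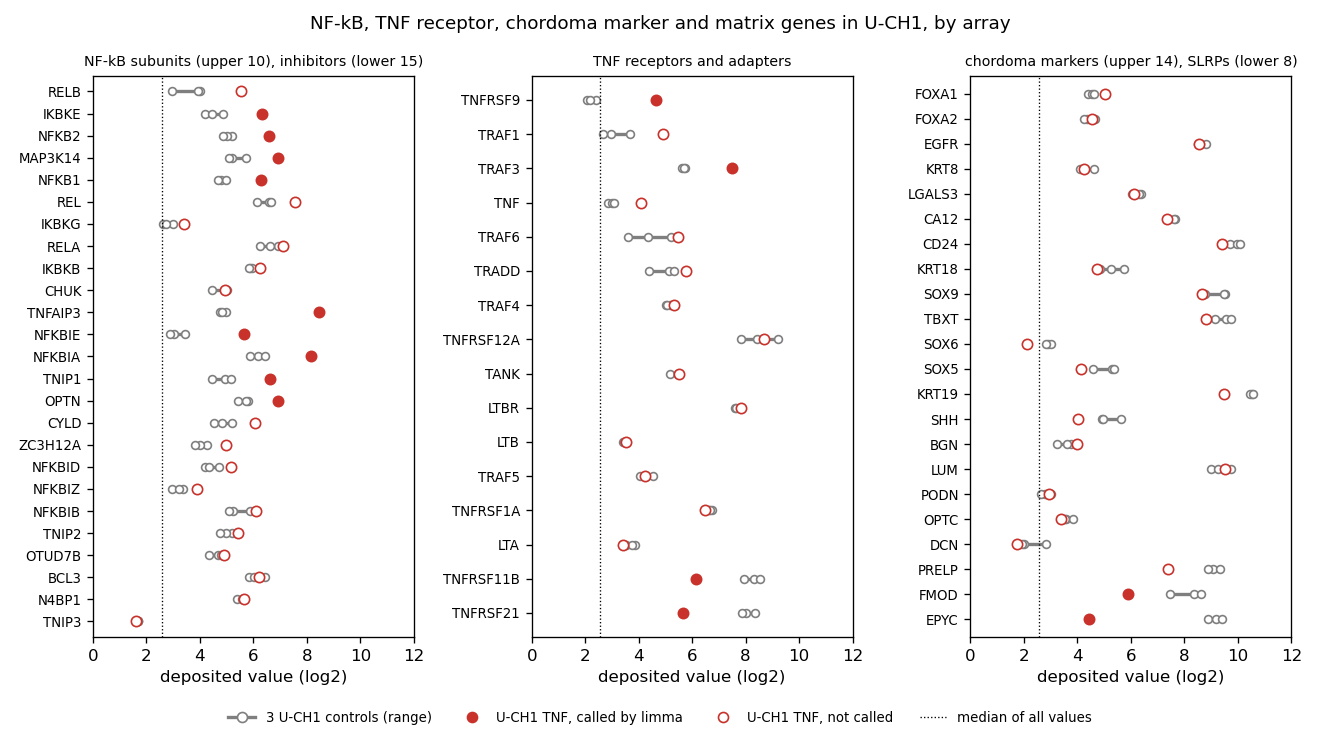
Deposited log2 values on the 3 U-CH1 controls (open grey circles, bar for the range) and the TNF array (red, filled where called by limma) for NF-kB subunits and inhibitors, TNF receptors and adapters, and chordoma markers with small leucine-rich proteoglycans (SLRPs). NF-kB genes lie mostly right of their controls, TNFRSF11B and TNFRSF21 left of them, and EPYC and FMOD are the 2 filled circles in the right panel.

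Genes of cell survival and death moved in part. TNFSF10, which encodes the death ligand TRAIL, read 2.29, 2.37 and 2.15 on the controls and 4.74 with TNF, a rise of 2.47 (adjusted p = 0.00559). BIRC2, an inhibitor of apoptosis that also acts in TNF receptor signalling, read 4.84, 5.06 and 5.0 on the controls and 6.67 with TNF, a rise of 1.71 (adjusted p = 0.0132). These were the 2 called of 24, and 15 lay above the range and 5 below it. The death receptor gene FAS read 4.33 to 4.96 on the controls and 6.32 with TNF (adjusted p = 0.061). BIRC3 is not analysed here.

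Among other cytokines the changes also ran both ways. IL32, an inflammatory cytokine, read 3.70, 3.12 and 2.33 on the controls and 6.80 with TNF, a rise of 3.74 (adjusted p = 0.00746). It was the 1 called of 13 genes of the IL-1 list, of which 9 lay above the control range. CSF1, the growth factor of macrophages, read 3.98, 3.78 and 3.94 on the controls and 6.70 with TNF, a rise of 2.80 (adjusted p = 0.00419). EBI3, a subunit of IL-27 and IL-35, rose by 2.04 (adjusted p = 0.0238), lost without any single U-CH1 control (adjusted p up to 0.0719). IL7, which sustains lymphocytes, went the other way. It read 5.51, 6.83 and 7.15 on the controls and 2.84 with TNF, 2.67 below the lowest control, a difference of -3.65 (adjusted p = 0.00889), or 12.6-fold lower.

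A receptor subunit that IL-7 shares with other cytokines rose strongly. IL2RG, the common gamma chain, read 3.15, 2.83 and 3.29 on the controls and 7.48 with TNF, a rise of 4.38 ± 0.27 (SE; adjusted p = 6.06e-05 in limma), or 20.9-fold. IL6 read 4.03, 5.11 and 4.87 on the controls and 7.18 with TNF, 2.07 above the highest control, and missed the threshold (adjusted p = 0.0604), which it passed in a fit of the U-CH1 arrays alone (adjusted p = 0.00912). In the IL6 and STAT3 list of 12 genes none was called in limma, 3 had an unadjusted p under 0.05 upwards and 1 downwards, and SOCS3, the feedback inhibitor, read 5.48 to 6.0 on the controls and 4.52 with TNF. Without control 1 or MUG-Chor1 control 2 there was 1 call in that list, as there was without MUG-Chor1 control 3.

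Genes that restrain T cells rose for 3 of 13. PDCD1LG2, which encodes the checkpoint ligand PD-L2, read 3.90, 3.88 and 4.29 on the controls and 6.03 with TNF, a rise of 2.00 (adjusted p = 0.0144). CD274, which encodes PD-L1, read 2.21 to 2.51 on the controls and 2.95 with TNF (adjusted p = 0.45). ENTPD1, or CD39, an ectoenzyme that breaks down ATP, rose by 1.68 (adjusted p = 0.0256), and IDO1 was the third. The count was 1 without control 1 or control 2, which ended the calls of PDCD1LG2 (adjusted p up to 0.0545) and ENTPD1 (adjusted p up to 0.0672), the latter also without MUG-Chor1 control 1. In the list of tryptophan, arginine and purine breakdown, ADA, adenosine deaminase, rose by 1.84 (adjusted p = 0.0144) and KMO, an enzyme of the kynurenine pathway, by 1.46 (adjusted p = 0.0365, and up to 0.0756 without any control but MUG-Chor1 control 3). KYNU, another kynurenine enzyme, read 5.01, 6.04 and 5.25 on the controls and 8.16 with TNF, and was not called (adjusted p = 0.093). With IDO1 these were 3 calls of 11, and 6 without MUG-Chor1 control 3.

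Antigen presentation shifted by small amounts. Of 20 tested MHC class I genes 15 lay above the control range, with a median of 0.67, but TAPBP, which loads peptides on class I molecules, was the 1 called. It read 6.98, 6.67 and 7.0 on the controls and 8.41 with TNF, a rise of 1.53 (adjusted p = 0.0467), with 1.5 to 1.55 at its 5 probe sets. Leaving out any control but MUG-Chor1 control 3 ended the call (adjusted p up to 0.112). In the MHC class II list of 12 genes CTSS, the cathepsin that cuts the invariant chain, read 4.02, 5.21 and 4.71 on the controls and 7.98 with TNF, a rise of 3.33 (adjusted p = 0.00559). CD74, the invariant chain, read 3.15 to 3.78 on the controls and 4.81 with TNF (adjusted p = 0.15). Of 17 tested lysosome and cathepsin genes CTSS was also the 1 called, while 15 lay above the range with a median of 0.42.

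Complement, adhesion and protease genes each held few calls. CFB, complement factor B, read 4.03, 4.92 and 5.02 on the controls and 6.76 with TNF, a rise of 2.10 (adjusted p = 0.0309), lost without control 2 or MUG-Chor1 control 1 (adjusted p up to 0.0643). It was 1 of 14, a count that became 4 without MUG-Chor1 control 3. VCAM1, an adhesion molecule for leukocytes, read 2.45, 2.32 and 2.44 on the controls and 4.76 with TNF, a rise of 2.36 (adjusted p = 0.00584). CEACAM1 rose by 2.03 (adjusted p = 0.0144, and 0.0511 without control 2). ICAM1, a further adhesion molecule, read 3.31, 3.35 and 2.85 on the controls and 6.04 with TNF, 2.69 above the highest control, and was not called (adjusted p = 0.115). Its MUG-Chor1 controls, which enter the shared spread, read 4.24 to 6.75. Of 18 metalloproteinase and TIMP genes, MMP9, gelatinase B, rose. It read 3.35, 2.94 and 2.41 on the controls and 5.65 with TNF, a rise of 2.75 (adjusted p = 0.00682).

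Of the receptors and chains that attach cells to basement membrane, 1 integrin fell and 1 laminin chain rose. ITGA6, the integrin subunit that binds laminin, read 8.33, 8.57 and 8.07 on the controls and 6.74 with TNF, a difference of -1.58 (adjusted p = 0.0266). LAMB3, a laminin chain, read 4.65, 4.68 and 4.17 on the controls and 6.45 with TNF, a rise of 1.95 (adjusted p = 0.0151). They were the single calls among 17 integrins and 8 laminin chains, and that of ITGA6 ended without control 1, control 2 or MUG-Chor1 control 1 (adjusted p up to 0.0694). TWIST2, a transcription factor of mesenchymal cells, rose by 1.74 (adjusted p = 0.0317), lost without any single U-CH1 control or MUG-Chor1 control 1 (adjusted p up to 0.0675), while CDH1, which encodes E-cadherin, read 6.11 to 6.49 on the controls and 5.59 with TNF (adjusted p = 0.46).

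Further large rises belonged to no immune group. ANKRD1, a transcription cofactor counted among targets of YAP, read 4.24, 4.20 and 3.60 on the controls and 7.73 with TNF, a rise of 3.72 (adjusted p = 0.00837). CCN2, a matricellular protein counted in the same list of 13 YAP and TEAD targets, read 9.59, 9.12 and 9.02 on the controls and 6.85 with TNF, a difference of -2.40 (adjusted p = 0.00765). So the 2 called members of that list moved in opposite directions. BEX1 rose by 3.15 (adjusted p = 0.0144), DOCK10, an exchange factor for small GTPases, by 3.10 (adjusted p = 0.0118), the transcription factor gene MSC by 2.97 (adjusted p = 0.00889) and the endothelin receptor gene EDNRB by 2.82 (adjusted p = 0.00939). NFE2L3, a transcription factor related to NRF2, rose by 2.65 (adjusted p = 0.00445), LGI2 by 2.65 (adjusted p = 0.00144) and the WNT modulator SFRP2 by 2.41 (adjusted p = 0.0218), which was lost without any single U-CH1 control (adjusted p up to 0.0675). NBEAP1, a pseudogene, read 0.95 to 1.36 on the controls and 4.35 with TNF, a rise of 3.15 (adjusted p = 0.000708) that was 1.78 with the floor.

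Single stress and signalling genes rose beside lists that otherwise held no call. HMOX1, heme oxygenase 1, read 6.95, 6.71 and 6.83 on the controls and 9.20 with TNF, a rise of 2.37 (adjusted p = 0.00794), as 1 of 11 NRF2 targets. GDF15, a stress-induced cytokine, read 6.28, 6.07 and 6.50 on the controls and 8.65 with TNF, a rise of 2.36 (adjusted p = 0.0131), as 1 of 12 p53 targets, of which 8 lay above the range and none below. The prostaglandin receptor gene PTGER4 rose by 1.5 (adjusted p = 0.0243), lost without any single U-CH1 control or MUG-Chor1 control 1 (adjusted p up to 0.0675), while PTGS2, which encodes cyclooxygenase 2, read 5.78 to 6.22 on the controls and 6.51 with TNF. JAG1, a Notch ligand, read 5.57, 5.39 and 5.45 on the controls and 7.43 with TNF, a rise of 1.96 (adjusted p = 0.0144, and 0.0511 without control 2), as the 1 call among 12 Notch pathway genes.

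The largest called falls were those of EPYC and MYL1, 1 gene of the matrix and 1 of muscle. EPYC, which encodes the small leucine-rich proteoglycan epiphycan, read 8.87, 9.17 and 9.39 on the controls and 4.45 with TNF. It was 4.42 below the lowest control, a difference of -4.70 ± 0.44 (SE; adjusted p = 0.00109 in limma) or 25.9-fold. FMOD, which encodes fibromodulin and binds collagen fibrils, read 7.48, 8.34 and 8.61 on the controls and 5.88 with TNF, a difference of -2.27 (adjusted p = 0.0223, and 0.0706 without control 2). PRELP, another member, read 8.88 to 9.32 on the controls and 7.37 with TNF and missed the threshold (adjusted p = 0.0598). LUM read 9.0 to 9.75 on the controls and 9.53 with TNF, within the range. Of 8 tested small leucine-rich proteoglycans 2 fell and 5 lay below the range. Among 22 collagen chains COL6A3 fell by 1.38 on the log2 scale (adjusted p = 0.0350), a call lost without any control but MUG-Chor1 control 3 and in a fit of the U-CH1 arrays alone (adjusted p up to 0.0860). The aggrecan gene ACAN read 8.29 to 9.07 on the controls and 7.93 with TNF (adjusted p = 0.46), and COL2A1 6.64 to 7.43 and 6.28 (adjusted p = 0.68). MYL1, a myosin light chain of fast muscle, read 8.59, 9.18 and 8.93 on the controls and 4.76 with TNF, a difference of -4.14 (adjusted p = 0.00245), while the other 12 tested muscle and contractile genes were not called.

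Notochord and chordoma markers showed a small shift without a call. Of 14 tested markers 8 lay below the control range and 1 above it, with a median of -0.54, and none was called in limma, while 3 had an unadjusted p under 0.05. KRT19 lay 0.96 below its lowest control (adjusted p = 0.0901, and 0.0273 with trended and robust variances, where it was called). TBXT lay 0.34 below its lowest control (adjusted p = 0.423), CD24 read 9.70 to 10.09 on the controls and 9.39 with TNF, and EGFR 8.51 to 8.81 and 8.56.

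Transcription factors of the early growth response fell in part. FOSB read 7.13, 6.28 and 7.94 on the controls and 3.22 with TNF, a difference of -3.90 (adjusted p = 0.00526) at its brighter probe set and -1.38 at the other. FOS read 6.79, 6.10 and 7.08 on the controls and 3.56 with TNF, a difference of -3.09 (adjusted p = 0.0126, and 0.0504 without control 1). Both encode subunits of AP-1, and the other 7 tested members of that family were not called, JUN reading 6.82 to 7.38 on the controls and 6.71 with TNF. Of 15 tested EGR, KLF and other early response genes 10 lay below the control range with a median of -0.55, and none was called in limma, while 3 had an unadjusted p under 0.05. Control 3 was the highest control for 11 of the 15, and the median was -0.35 without it. ETV1, a target of ERK signalling, differed by -1.51 (adjusted p = 0.0411), lost without any single U-CH1 control or MUG-Chor1 control 1 (adjusted p up to 0.0914). DUSP6, a phosphatase that restrains ERK, read 6.06, 6.02 and 7.42 on the controls and 3.80 with TNF, 2.23 below the lowest, and was not called (adjusted p = 0.0918).

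The remaining large falls included signalling and membrane genes. TPD52L1 read 6.72, 7.38 and 7.77 on the controls and 3.95 with TNF, a difference of -3.34 (adjusted p = 0.00445). SCIN, which encodes the actin-severing protein scinderin, differed by -3.09 (adjusted p = 0.00657), the secreted ligand gene WNT8A by -3.21 (adjusted p = 0.00837) and the guidance factor gene SEMA3E by -2.44 (adjusted p = 0.00705). CAPN6, a calpain family member, differed by -2.47 (adjusted p = 0.00584), the angiotensin-converting enzyme gene ACE by -2.34 (adjusted p = 0.0151) and LGR6, a receptor for R-spondins, by -2.33 (adjusted p = 0.00939). The call of ACE ended without control 1 or control 2 (adjusted p up to 0.0572). MINAR2 differed by -3.82 (adjusted p = 0.0411) and the receptor phosphatase gene PTPRD by -2.74 (adjusted p = 0.0449), both lost without any single U-CH1 control or MUG-Chor1 control 1 (adjusted p up to 0.105 and 0.120). SCUBE1 differed by -2.59 (adjusted p = 0.00445) at its brighter probe set and by -0.43 at the other, so its fall rests on 1 probe set. ANKRD20A1, of a family of near-identical copies whose signals an array may not separate, read 7.46, 8.02 and 7.89 on the controls and 4.05 with TNF, a difference of -3.74 (adjusted p = 0.000708).

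Small nucleolar RNAs, which guide the modification of ribosomal and spliceosomal RNA, were also among the falls. SNORA75 read 9.54, 9.45 and 8.68 on the controls and 5.76 with TNF, a difference of -3.46 (adjusted p = 0.00445). SNORA72 read 8.43, 8.42 and 7.45 on the controls and 4.95 with TNF, a difference of -3.15 (adjusted p = 0.00657), but -0.19 at its second, dim probe set. SNORA14B read 5.69, 5.72 and 4.86 on the controls and 2.95 with TNF, a difference of -2.47 (adjusted p = 0.0144), lost without control 1 or control 2 (adjusted p up to 0.0555). These were the 3 called of 156 tested, 9 lay at least 1 below the control range, and the median over the 156 was -0.18. Control 3 was the lowest control for 8 of the 9, as for SNORA60, which read 8.31, 8.08 and 5.98 on the controls and 4.10 with TNF and was not called (adjusted p = 0.0551). The part that control 3 has in these values was not tested.

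Marker genes of other cell types were read beside the immune rises. Of 7 tested leukocyte markers none was called in limma, 4 had an unadjusted p under 0.05, and 6 lay above the control range, with a median of 0.68. As a mean deviation from the control mean the list stood at -0.10 to 0.05 on the controls and at 0.56 with TNF. PTPRC, the defining marker CD45, read 1.02, 1.23 and 1.08 on the controls and 0.93 with TNF, and CD3E 1.53 to 1.70 and 1.82. CD68 read 7.67 to 8.05 on the controls and 8.48 with TNF, and ITGAM 2.36 to 2.70 and 3.54. Of 8 fibroblast and 5 endothelial markers none was called in limma. For the fibroblast list 1 gene had an unadjusted p under 0.05 and for the endothelial list none, with medians of 0.11 and -0.11. Without control 2 these were 0.21 and -0.02, and without control 1 the fibroblast median was 0.19. The part of other cells in the rises was not tested beyond these values.

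Several programs of growth and metabolism held no call in limma. With 0.913% of all genes tested called upwards and 0.359% downwards, lists of this size often hold none. Of 21 tested G2/M and mitosis genes 3 lay above the control range and 9 below it, with a median of -0.17, and none had an unadjusted p under 0.05. Control 2 was the lowest control for 17 of them and control 3 the highest for 14, and the median was 0.07 without control 3 and -0.10 without control 1. Of 21 G1/S and DNA replication genes 1 had an unadjusted p under 0.05, and 15 lay within the control range. Cholesterol and lipid synthesis (14 genes, 3 with an unadjusted p under 0.05), endoplasmic reticulum folding (13 genes, none), ATF4 stress genes (12 genes, none) and housekeeping genes (7 genes, none) were likewise without a call. Of the cholesterol and lipid synthesis genes 6 lay above the control range and 1 below it. Their median was 0.33, and 0.14 without control 1. Across the 64 lists, which hold 762 distinct tested genes, 59 of the 155 rises and 12 of the 61 falls belonged to a list.

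**Figure D4:**
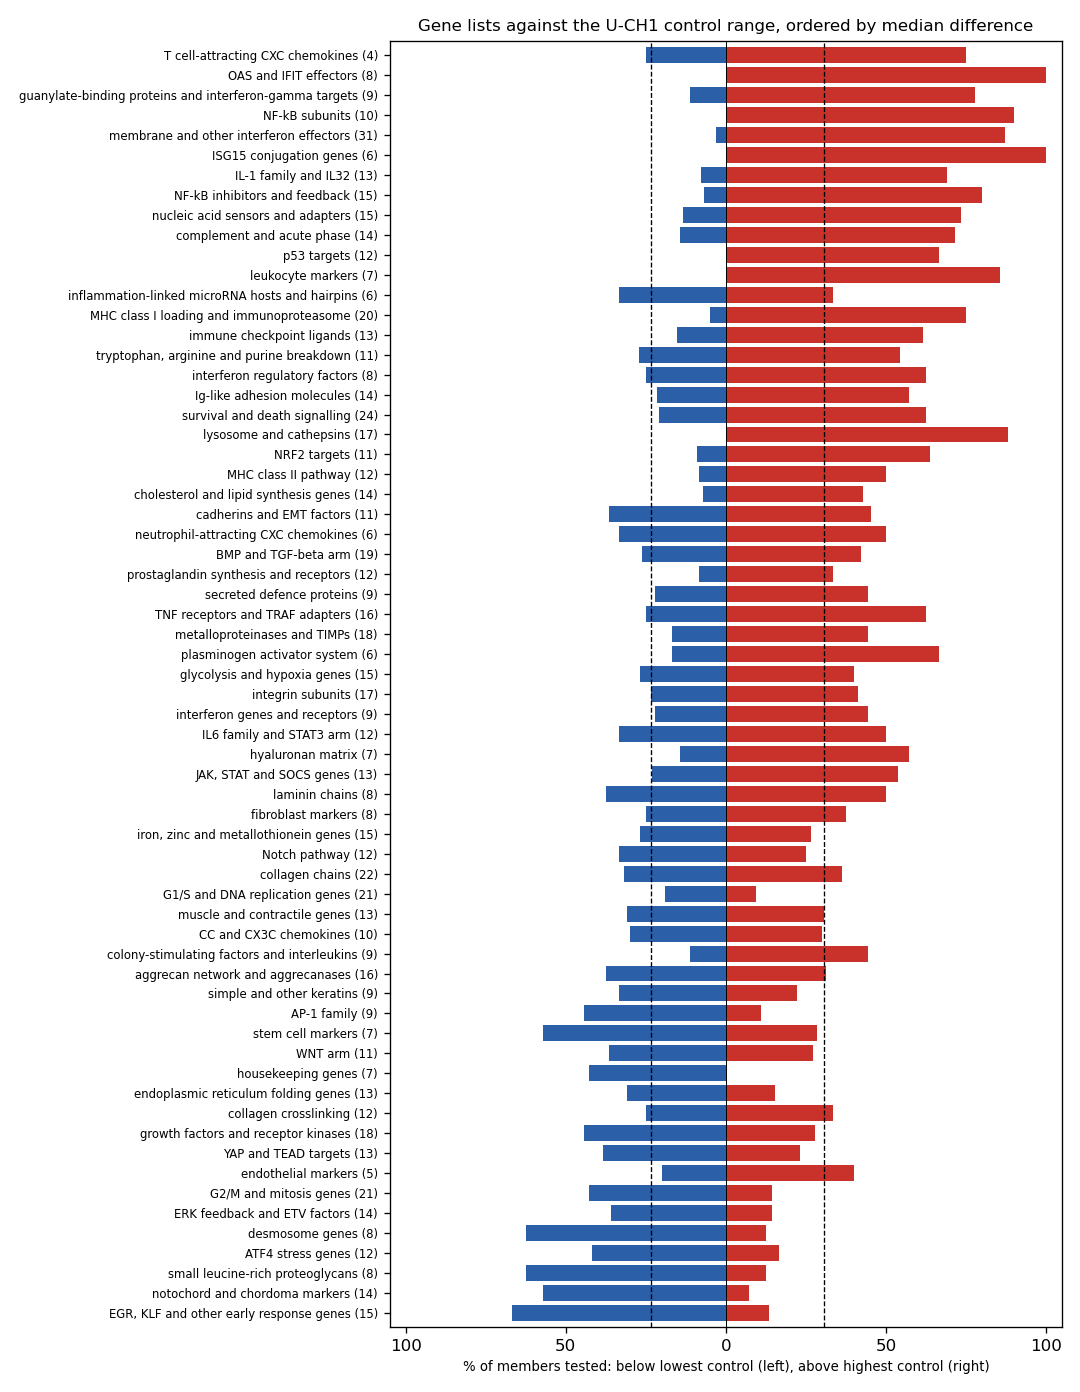
For each gene list, the percentage of tested members (number in brackets) above the highest U-CH1 control on the TNF array (red, right) and below the lowest control (blue, left), ordered by the median difference, with dashed lines at the percentages over all genes tested, 30.8 and 23.4. Interferon and NF-kB lists lie at the top with long red bars, and early response, chordoma marker and proteoglycan lists at the bottom with long blue bars.

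To see which changes differed from those of MUG-Chor1, the difference of the 2 TNF effects was tested in the same limma model. It was called for 90 of 16986 genes (0.530%), of which 23 had risen and 7 had fallen in U-CH1 and 60 were not called there. Of the 155 rises in U-CH1, 37 were also called upwards in MUG-Chor1, 116 were not called there and 2 were called downwards, JAG1 and FYB1, the latter named here after its values were seen. Of the 61 falls 22 were also called downwards and none upwards. For comparison, 489 of all 16986 genes tested were called in MUG-Chor1, in either direction. A missing call in MUG-Chor1 does not show that a gene did not respond there. The count of 90 was 38 to 40 without 1 U-CH1 control, 43 and 48 without the first or the second control of MUG-Chor1 and 152 without control 3 of that line, so which genes pass depends on the controls used.

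The genes that differed included several with the largest rises in U-CH1. CXCL10 differed by 7.09 in U-CH1 and 0.82 in MUG-Chor1, a difference between lines of 6.27 (adjusted p = 0.000132). FDCSP rose in both, by 5.78 and 2.87, and still differed between them (adjusted p = 0.0152). IL2RG differed by 4.38 and 0.55 (adjusted p of the difference = 0.00229), UBD by 3.66 and 0.26 (0.0102) and IFIH1 by 3.66 and 0.62 (0.0125). JAG1 rose by 1.96 in U-CH1 and differed by -1.83 in MUG-Chor1, both called (adjusted p of the difference = 0.00707).

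Interferon effectors made up part of this difference. Their lists had medians of 2.00 for OAS and IFIT genes, 1.23 for the ISG15 system and 1.26 for membrane effectors in U-CH1, and -0.39, -0.24 and -0.29 in MUG-Chor1. The difference between lines was called for OAS1, OAS2 and IFIT1 of 8 OAS and IFIT genes, for BST2 and SAMD9 of 31 membrane effectors, for IFIH1 of 15 sensors and for none of the 6 ISG15 genes, in all 6 of 60. Untreated levels differed as well. Control means in MUG-Chor1 were 6.32 for OAS1, 6.62 for OAS2, 4.21 for IFIT1, 7.86 for SAMD9 and 5.64 for IFIH1. In U-CH1 they were 5.10, 4.91, 2.97, 6.15 and 4.01. BST2 was low in both, at 1.85 and 1.99. The part of the untreated level in the difference was not tested. Among the falls TNFRSF21 differed by -2.40 in U-CH1 and 0.33 in MUG-Chor1 (adjusted p of the difference = 0.0195), SEMA3E by -2.44 and 0.80 (0.0186), CAPN6 by -2.47 and 0.39 (0.0259) and TPD52L1 by -3.34 and -0.01 (0.0342). These genes were low in untreated MUG-Chor1, with control means of 4.08, 4.58, 3.29 and 3.26 in that order. The U-CH1 control means were 8.08, 7.16, 8.41 and 7.29, and the U-CH1 TNF values 5.67, 4.71, 5.95 and 3.95. Whether the low start limited a fall in MUG-Chor1 was not tested. The difference was not called for CCL2, CCL5, TNFAIP3, IL32, CTSS, MYL1, FOS or FOSB, which does not show that the lines respond alike in them.

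**Figure D5:**
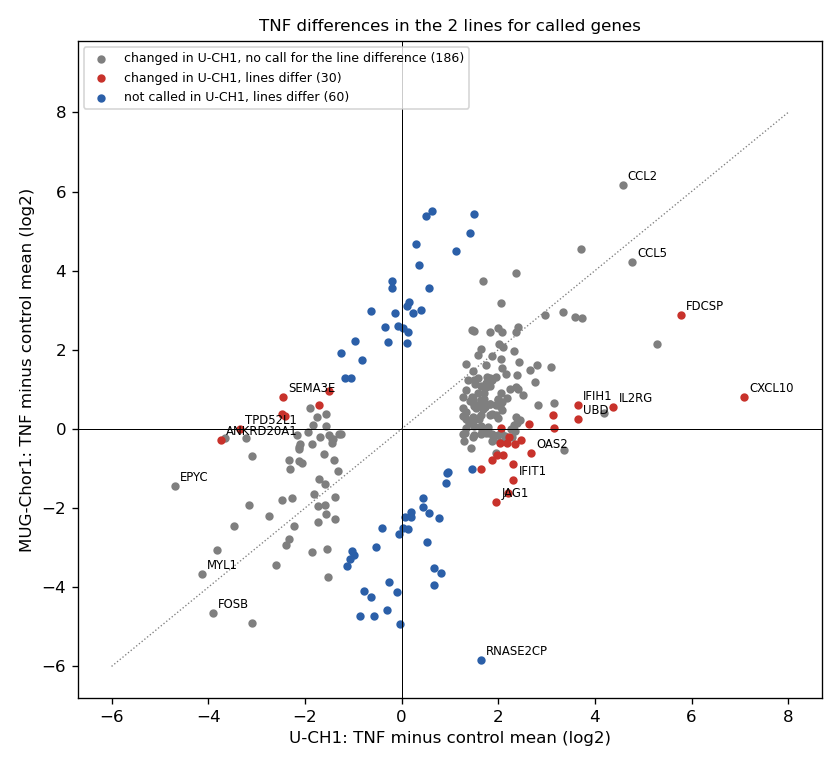
Difference between the TNF array and the control mean (log2) in U-CH1 on the horizontal axis and in MUG-Chor1 on the vertical axis, for genes called in U-CH1 or for the difference between lines, with a dotted line where both are equal. Red points changed in U-CH1 and differed between lines (30), grey points changed in U-CH1 without a call for the difference (186), and blue points, near 0 on the horizontal axis for the most part, differed without a call in U-CH1 (60).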

How the data were processed

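Total RNA of 8 samples of U-CH1 and MUG-Chor1 was labelled as single-stranded cDNA and hybridised to whole-transcript arrays, per the labels. The deposited values are log2 expression values for 53617 probe sets. RMA and the Transcriptome Analysis Console, without versions, stand in the submitters' processing notes, and the log base is read from the range of the values, 0.0648 to 12.7. Nothing was normalized again.

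Of the probe sets, 23871 carry exactly 1 gene symbol, 1842 carry several and were left out, and 27904 are not listed in the annotation and are unnamed here. By Entrez ID 22569 matched RefSeq, which updated 90 symbols. The brightest probe set stood for a gene, which gave 22395 genes, 632 of them with several probe sets. The 16986 genes above the median of all values, 2.57, on at least 1 array were tested. The number of arrays limits the precision.

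The functions lmFit and eBayes of limma 3.58.1 (R 4.3.3) fitted 4 group means over all 8 arrays, with 4 residual degrees of freedom, two-sided, with Benjamini-Hochberg adjustment at 0.05. A gene was also counted when the TNF value lay at least 1 outside the range of the 3 U-CH1 controls. The procedure was tested on simulated data in which the TNF array varied like the controls. That test therefore cannot show whether the real TNF array does. Named were the 30 largest rises and falls, up to 6 called members of each list, the 10 largest differences between lines each way and a few fixed genes. Uncalled list members named for their role, FYB1, PLSCR1 and SNORA60 were chosen after their values were seen. The members and lists were chosen with earlier results of these data known. Promoters are 250 bases before the start from RefSeq, assembly GRCh38.p14. Alternatives were no filter, a filter on the U-CH1 arrays, mean probe sets, quantile normalization, trended and robust variances, a fit of the U-CH1 arrays alone and leaving out each control.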

Additional observations from a re-analysis of the deposited data

Results flagged for a closer look

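The difference of the TNF effects between the lines (U-CH1 minus MUG-Chor1, log2) passed the threshold in limma for the named genes given here, with 1 TNF array per line, and each is given as a value. Among immune genes that rose in U-CH1 the difference was 6.27 for CXCL10, 3.84 for IL2RG, 3.61 for IFIT1, 3.40 for UBD, 3.27 for OAS2, 3.19 for OAS1 and 3.04 for IFIH1. It was 2.91 for FDCSP, 2.79 for CXCL11, 2.74 for TNFSF10, 2.72 for BST2 and 2.52 for SAMD9. Other genes that rose in U-CH1 were JAG1 at 3.79, NBEAP1 at 3.14 and LGI2 at 2.52. Among genes that fell in U-CH1 it was -3.46 for ANKRD20A1, -3.34 for TPD52L1, -3.24 for SEMA3E, -2.85 for CAPN6 and -2.74 for TNFRSF21. All of these had lower control means in MUG-Chor1 than in U-CH1, as ANKRD20A1 with 4.75 and 7.79.

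Other differences rest on genes not called in U-CH1 that were lower with TNF in MUG-Chor1. RNASE2CP, a pseudogene, differed by 1.64 in U-CH1 and -5.84 in MUG-Chor1, a difference of 7.48, and its neighbour in name RNASE2 by 0.82 and -3.65, a difference of 4.47. EGR1, an early response transcription factor, differed by -0.58 and -4.71, a difference of 4.14. XYLT1, which starts the sugar chains of proteoglycans, differed by -0.30 and -4.58, a difference of 4.28. HAPLN1, which links aggrecan to hyaluronan, differed by -1.13 and -3.47, a difference of 2.34, and KRT19 by -1.03 and -3.08, a difference of 2.05. The difference was 4.90 for EXOC1L, 4.60 for HHLA2, 4.19 for PDK4, 4.03 for CHRM2 and 3.87 for CDH10.

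In a further group the difference rests on higher values with TNF in MUG-Chor1. TNFAIP6, a hyaluronan-binding protein known as a TNF target, differed by 0.63 in U-CH1 and 5.51 in MUG-Chor1, a difference of -4.88. FAP, a protease of fibroblasts, differed by -0.21 and 3.74, a difference of -3.95, and MMP3, stromelysin 1, by -0.20 and 3.57, a difference of -3.77. The difference was -4.87 for ATP6V0D2, -4.39 for NMB, -3.94 for IL36B, -3.79 for MORC1, -3.61 for F2RL2 and -3.53 for INA. Leaving out 1 control moved the number of such calls over all genes from 90 to between 38 and 152.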

How the results depend on the processing

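The count of 216 called genes was 199 without the filter, 235 with the filter on the U-CH1 arrays alone, 218 with mean probe sets, 222 after quantile normalization, 255 with trended and robust variances and 240 in a fit of the U-CH1 arrays alone, and it ranged from 106 to 329 when 1 control was left out. Of the 216, 111 remained called without U-CH1 control 1, 102 without control 2 and 133 without control 3, and all 216 without MUG-Chor1 control 3. The count of 438 genes at least 1 outside the control range was 554 to 638 without 1 U-CH1 control. The 90 differences between lines ranged from 38 to 152 when 1 control was left out, and from 69 to 95 under the other alternatives. Of 99 called genes named, 56 kept the call under all 12 alternatives and 43 lost it under at least 1. None of the 99 changed sign, while named genes without a call and with a difference near 0, such as CHRM2, could. Raising values under 2.57 to it cut the rise of CXCL10 from 136-fold to 81.1-fold, of FDCSP from 54.8-fold to 21.8-fold and of UBD from 12.6-fold to 3.53-fold. Other rises from controls under 2.57 were smaller with this floor too. On the log2 scale BST2 went from 2.34 to 1.76, IDO1 from 2.41 to 1.99, TNFRSF9 from 2.44 to 2.08 and LGI2 from 2.65 to 2.23. Rises from controls under the median of all values are limited by the background of the array. No paired analysis was possible because the TNF array carries no replicate number in its labels.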
